A study of Mus musculus with 2744 samples.

Results

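Genes for 10 motor chains of axonal transport were followed through the differentiation of mouse embryonic stem cells into motor neurons: Kif1a, Kif1b, Kif3a, Kif3b, Kif3c, Kif5a, Kif5b, Kif5c, Kif21a and Dync1h1. They were taken by symbol from the count tables, in which all 10 of 10 were found among 23968 genes, and all 10 passed the filter on low counts. Single cells were sorted from dissociated embryoid bodies and sequenced with a modified CEL-seq protocol, in which a barcode primer marks the polyadenylated RNA of a cell and linear amplification follows. The groups were Days 2, 3, 4, 5 and 6 without an eGFP label and Day 6 cells labelled eGFP++, each in a main and a pilot experiment. Day 6 cells labelled eGFP+ fill 1 main plate and have no pilot counterpart. Neither the stem cell line nor the gene that drives eGFP is named in the labels, so no allele is given here, and all groups share the differentiation protocol.

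The 2744 wells on 35 plates gave 2448 cells with at least 500 detected genes. Adding up the kept cells by group and experiment gave 13 sums, which held between 16370502 reads (pilot eGFP++, 39 cells) and 100972780 reads (main Day 3). Levels are CPM of these sums, the reads of a gene as a part of all gene reads, scaled with TMM. They are compared between groups for a gene, and not between genes, because the tables hold no per-length measure. A share is the percentage of cells with at least 1 read of a gene after each cell was thinned to 10000 reads. The culture passed from stem cells to neurons by its markers: 8 pluripotent stem cell markers summed to 4793 CPM (main) and 3475 CPM (pilot) on Day 2 and to 12.8 and 38.2 CPM on Day 6, while 10 neuron markers summed to 242.6 and 179.4 CPM on Day 2, 5065 and 5625 CPM on Day 6 and 13763 and 15357 CPM in eGFP++ cells. The 7 motor neuron markers summed to 3.58 and 18.5 CPM on Day 2, 403.5 and 265.01 CPM on Day 6 and 1119 and 1331 CPM in eGFP++ cells, with Slc5a7 at 0 in all pilot sums. In such mixed cells, a larger share of neurons and more RNA per neuron cannot be told apart in a summed level.

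Axonal transport is carried by motors that walk along microtubules and draw energy from ATP. Kinesins of the families kinesin-1 (Kif5a, Kif5b and Kif5c), kinesin-2 (Kif3a, Kif3b and Kif3c), kinesin-3 (Kif1a and Kif1b) and kinesin-4 (Kif21a) move mostly toward microtubule plus ends, which in axons point away from the cell body. Cytoplasmic dynein, whose heavy chain is encoded by Dync1h1, moves in the other direction and also serves dividing cells. Kif5b is found in most tissues, whereas Kif5a, Kif5c, Kif3c and Kif1a are known mainly from neurons.

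Upstream sequences are shown for 3 members whose levels were among those that moved through the course, since the members were to be compared for shared letters near the start of transcription. RefSeq's promoter table (GRCm38.p6) held 8 of the 10 members, without Kif5a and Kif5b. The 250 bases before each annotated start, written along the strand of the gene, are given below, with the letters TGACG in capitals.
Kif5c (chr2:49619036-49619285, plus strand): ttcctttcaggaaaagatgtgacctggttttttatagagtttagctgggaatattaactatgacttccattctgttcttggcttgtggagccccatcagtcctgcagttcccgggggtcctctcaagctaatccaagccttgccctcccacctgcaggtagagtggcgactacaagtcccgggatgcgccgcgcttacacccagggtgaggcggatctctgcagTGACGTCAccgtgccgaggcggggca
Kif1b (chr4:149307734-149307983, minus strand): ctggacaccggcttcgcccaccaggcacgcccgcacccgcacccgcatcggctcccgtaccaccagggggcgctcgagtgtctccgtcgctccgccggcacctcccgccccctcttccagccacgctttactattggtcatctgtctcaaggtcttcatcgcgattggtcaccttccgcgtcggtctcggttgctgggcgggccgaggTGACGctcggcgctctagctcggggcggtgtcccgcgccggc
Kif3a (chr11:53567119-53567368, plus strand): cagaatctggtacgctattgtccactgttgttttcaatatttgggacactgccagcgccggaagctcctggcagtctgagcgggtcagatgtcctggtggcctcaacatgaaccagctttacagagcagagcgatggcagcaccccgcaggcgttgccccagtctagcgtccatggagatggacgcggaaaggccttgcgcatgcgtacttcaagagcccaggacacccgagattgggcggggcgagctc

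TGACG, or CGTCA on the other strand, stood in 6 of the 8 members (Kif1a, Kif1b, Kif3b, Kif3c, Kif5c and Dync1h1) and in 17.9% of the 27025 promoters of the same length. In Kif5c the match was the whole palindrome TGACGTCA, the cAMP response element, which holds TGACG on both strands and began 26 bases before the start. That palindrome was found in 1.62% of all promoters and in no other member of the 8. The stretch of Kif3a shown above, like that of Kif21a, had no such match. The motif was chosen after the sequences had been seen. The other motifs searched on both strands were GGGCGG (5 of 8 members, 32.9% of promoters), CAGATG (3 of 8, 14.5%), CAGCTG (1 of 8, 12.8%) and TATAAA (1 of 8, 12.97%). A match describes letters in the window and does not show a binding site.

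The kinesin-1 heavy chains differed in course. Kif5a and Kif5c were low on Days 2 to 4 in most sums and highest in eGFP++ cells, while Kif5b, the widely expressed paralogue, was already present on Day 2 and was lower on Day 6. Kif5a (chr10:127225696-127263348, minus strand, GRCm38 as are all positions) measured 2.02, 3.18, 0.97, 7.60 and 34.8 CPM on Days 2 to 6 of the main experiment, 25.4 CPM in eGFP+ and 77.4 CPM in eGFP++ cells. In the pilot experiment Kif5a measured 2.52, 8.59, 21.6, 6.82 and 41.5 CPM on Days 2 to 6 and 64.8 CPM in eGFP++ cells. Both Day 6 sums and both eGFP++ sums of Kif5a lay above every sum of Days 2 to 5. The Day 4 pilot value was carried by 3 cells with a read, 1 of which held 60.5% of the reads.

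Kif5c (chr2:49619298-49774778, plus strand) measured 19.3, 10.8, 21.8, 43.98 and 202.4 CPM on Days 2 to 6 of the main experiment, 180.1 CPM in eGFP+ and 376.7 CPM in eGFP++ cells. Its pilot levels were 91.7, 5.16, 6.56, 47.9 and 184.6 CPM on Days 2 to 6 and 554 CPM in eGFP++ cells. The Day 2 pilot sum stood above those of Days 3 to 5, and its reads came from 6 cells, 1 of which held 47.8% of them. From Day 5 to Day 6 the level of Kif5c was 4.60-fold higher in the main and 3.86-fold higher in the pilot experiment. Across the 4 main plates of Day 6, unscaled CPM of Kif5c ran from 154.4 to 250.7, above the highest of the 4 Day 5 plates at 65.3.

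Kif5b (on chromosome 18, positions 6201002 to 6242174, minus strand) moved least of the 3 paralogues. It measured 199.1, 167.4, 118.3, 166.6 and 132.4 CPM on Days 2 to 6 of the main experiment and 195.7, 196.7, 178.7, 210.3 and 150.02 CPM in the pilot experiment. Both Day 6 sums lay below both Day 2 sums. eGFP+ cells had 226.3 CPM, and eGFP++ cells had 151.8 CPM (main) and 289.9 CPM (pilot). Antisense genes overlap Kif5b in the annotation, and the sources used here do not say whether the counting used strand.

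Over the days, the largest share of kinesin-1 reads passed from Kif5b to Kif5c. Kif5b made up 90.3% (main) and 67.5% (pilot) of the summed Kif5a, Kif5b and Kif5c reads on Day 2, 76.4% and 79.4% on Day 5 and 35.8% and 39.9% on Day 6. Kif5c made up 54.8% and 49.1% on Day 6, and 62.2% and 60.99% in eGFP++ cells, where Kif5b made up 25.1% and 31.9%. Kif5a was the smallest of the 3 shares on Day 6, at 9.41% and 11.03%. In eGFP+ cells, which had no replicate, Kif5b made up 52.4% and Kif5c 41.7%. These shares were not tested, and they compare groups for the same 3 genes, since a read share between paralogues also depends on how well each transcript is captured.

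**Figure D1:**
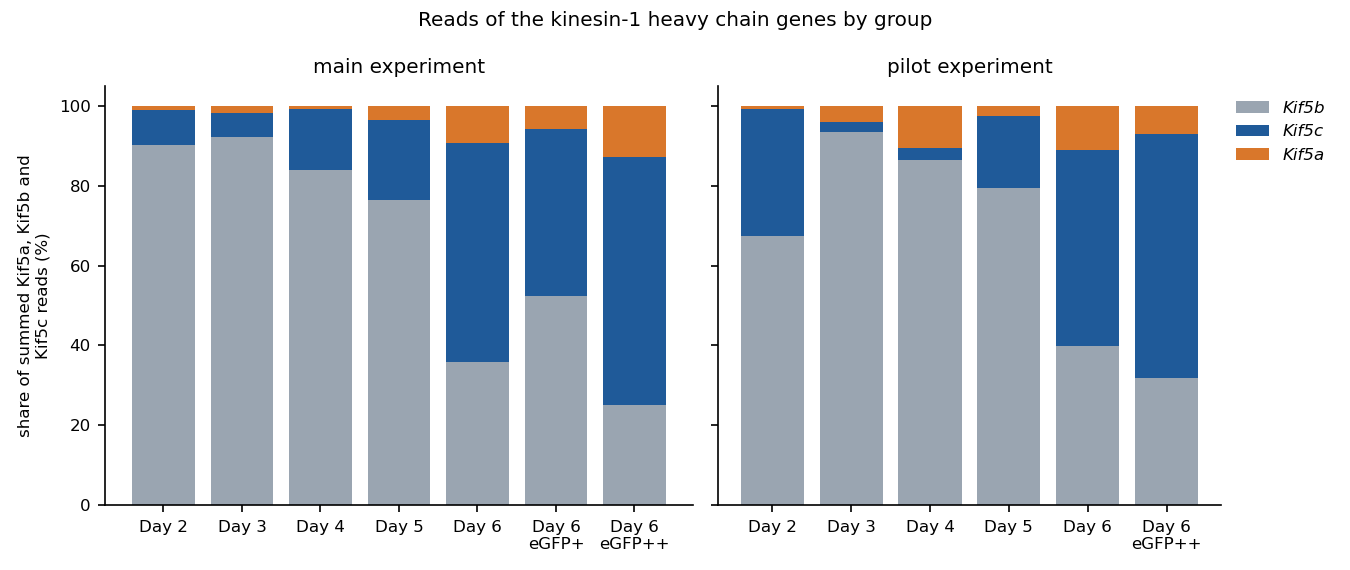
Stacked bars give the share of summed Kif5a, Kif5b and Kif5c reads (%, vertical axis) in each group (horizontal axis), main experiment on the left and pilot on the right. Kif5b makes up 90.3% and 67.5% on Day 2 and 35.8% and 39.9% on Day 6, where Kif5c has the largest share in both experiments.

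Counted by cells, Kif5b stayed ahead of Kif5c on Day 6, at 37.01% (main) and 43.7% (pilot) of cells with a read beside 31.4% and 29.6%. At 10000 reads, Kif5b was seen alone of the 3 in 52.4% (main) and 28.4% (pilot) of Day 2 cells and in 22.6% and 25.4% of Day 6 cells. Kif5a or Kif5c without Kif5b was seen in 3.94% and 1.35% of Day 2 cells, 20.9% and 12.7% of Day 6 cells and 34.04% and 23.1% of eGFP++ cells. Cells with Kif5b together with Kif5a or Kif5c came to 14.4% and 18.3% on Day 6. A cell without a read at this depth is not shown to lack the gene.

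The kinesin-2 chains differed from each other. Kif3a pairs with Kif3b or, in neurons, with Kif3c. Kif3a (chr11:53567379-53601967, plus strand) measured 30.8, 59.1, 60.9, 69.03 and 92.4 CPM on Days 2 to 6 of the main experiment, 52.1 CPM in eGFP+ and 188.7 CPM in eGFP++ cells. The pilot levels of Kif3a were 22.95, 92.8, 60.5, 76.96 and 123.3 CPM on Days 2 to 6 and 273.9 CPM in eGFP++ cells. Both Day 2 sums of Kif3a were below all other sums of the 2 experiments, and both eGFP++ sums were above them. Kif3c (chr12:3365132-3406494, plus strand) measured 4.24, 5.15, 2.47, 8.67 and 23.96 CPM on Days 2 to 6 of the main experiment, 10.4 CPM in eGFP+ and 59.2 CPM in eGFP++ cells. In the pilot Kif3c had 0 reads on Days 2 and 3, then 1.79, 8.11 and 13.5 CPM on Days 4 to 6 and 47.7 CPM in eGFP++ cells. Kif3c shares its locus with the antisense gene 1110002L01Rik, and reads of the 2 cannot be told apart if strand was not used.

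Kif3b (chr2:153291413-153333390, plus strand) showed no order by day. It measured 7.25, 19.9, 14.5, 11.7 and 28.6 CPM on Days 2 to 6 of the main experiment and 30.9 CPM in eGFP++ cells. In the pilot it measured 31.9, 0.69, 47.2, 30.7 and 30.4 CPM on Days 2 to 6 and 33.3 CPM in eGFP++ cells. No Kif3b read was found in the 83 eGFP+ cells, which allows a share of cells with a read of up to 3.61%. Kif3c took a larger part of the summed Kif3b and Kif3c reads in eGFP++ cells, 65.7% (main) and 58.9% (pilot), than on Day 6, 45.6% and 30.8%. The pilot eGFP++ values rest on few cells: 3 cells held all Kif3b reads, and 1 of 7 cells held 69.9% of the Kif3c reads.

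The kinesin-3 chains move vesicle precursors and, in the case of Kif1b, also mitochondria. Kif1b (chr4:149176319-149307693, minus strand) measured 23.6, 58.05, 58.8, 66.8 and 144.6 CPM on Days 2 to 6 of the main experiment, 45.4 CPM in eGFP+ and 148.2 CPM in eGFP++ cells. Pilot levels of Kif1b were 11.6, 11.9, 72.3, 56.2 and 104.7 CPM on Days 2 to 6 and 395.7 CPM in eGFP++ cells. Both Day 6 sums were the highest of the 5 days within their experiment. Kif1a (chr1:93015464-93101951, minus strand) measured 8.46, 13.3, 13.1, 5.95 and 19.7 CPM on Days 2 to 6 of the main experiment, 4.48 CPM in eGFP+ and 29.3 CPM in eGFP++ cells. Kif1a pilot sums measured 6.89, 23.4, 6.77, 5.47 and 26.5 CPM on Days 2 to 6 and 11.6 CPM in eGFP++ cells. Kif1a was thus highest on Day 6 among the 5 days in both experiments, but its eGFP++ sums lay on either side of the Day 6 sums.

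Kif21a, a kinesin-4 motor, had higher sums on Days 4 to 6 than on Days 2 and 3. Kif21a (chr15:90933276-91049948, minus strand) measured 17.04, 18.2, 41.4, 59.7 and 71.1 CPM on Days 2 to 6 of the main experiment, 57.2 CPM in eGFP+ and 55.2 CPM in eGFP++ cells. Its pilot sums measured 15.7, 3.22, 36.02, 48.4 and 47.7 CPM on Days 2 to 6 and 229.9 CPM in eGFP++ cells. All 6 sums of Days 4 to 6 lay above all 4 sums of Days 2 and 3. Its eGFP++ sums were below Day 6 in the main and above it in the pilot experiment, and its fitted log2 change of 1.37 became -0.46 without the pilot eGFP++ sum.

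Dync1h1 (chr12:110601452-110666945, plus strand) had its lowest level on Day 5 in the main and on Day 4 in the pilot experiment. It measured 404.4, 338.8, 315.7, 299.7 and 675 CPM on Days 2 to 6 of the main experiment, 1026 CPM in eGFP+ and 1090.0 CPM in eGFP++ cells. In the pilot it measured 740.4, 997, 221.3, 644 and 927 CPM on Days 2 to 6 and 1653 CPM in eGFP++ cells. The highest sum of each experiment was that of eGFP++ cells. Among the 5 days the highest was Day 6 in the main and Day 3 in the pilot experiment. In the annotation, genes on the other strand overlap Dync1h1, and a processed pseudogene on the other strand overlaps Kif21a. Whether the counting used strand is not known here, as for Kif5b.

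**Figure D2:**
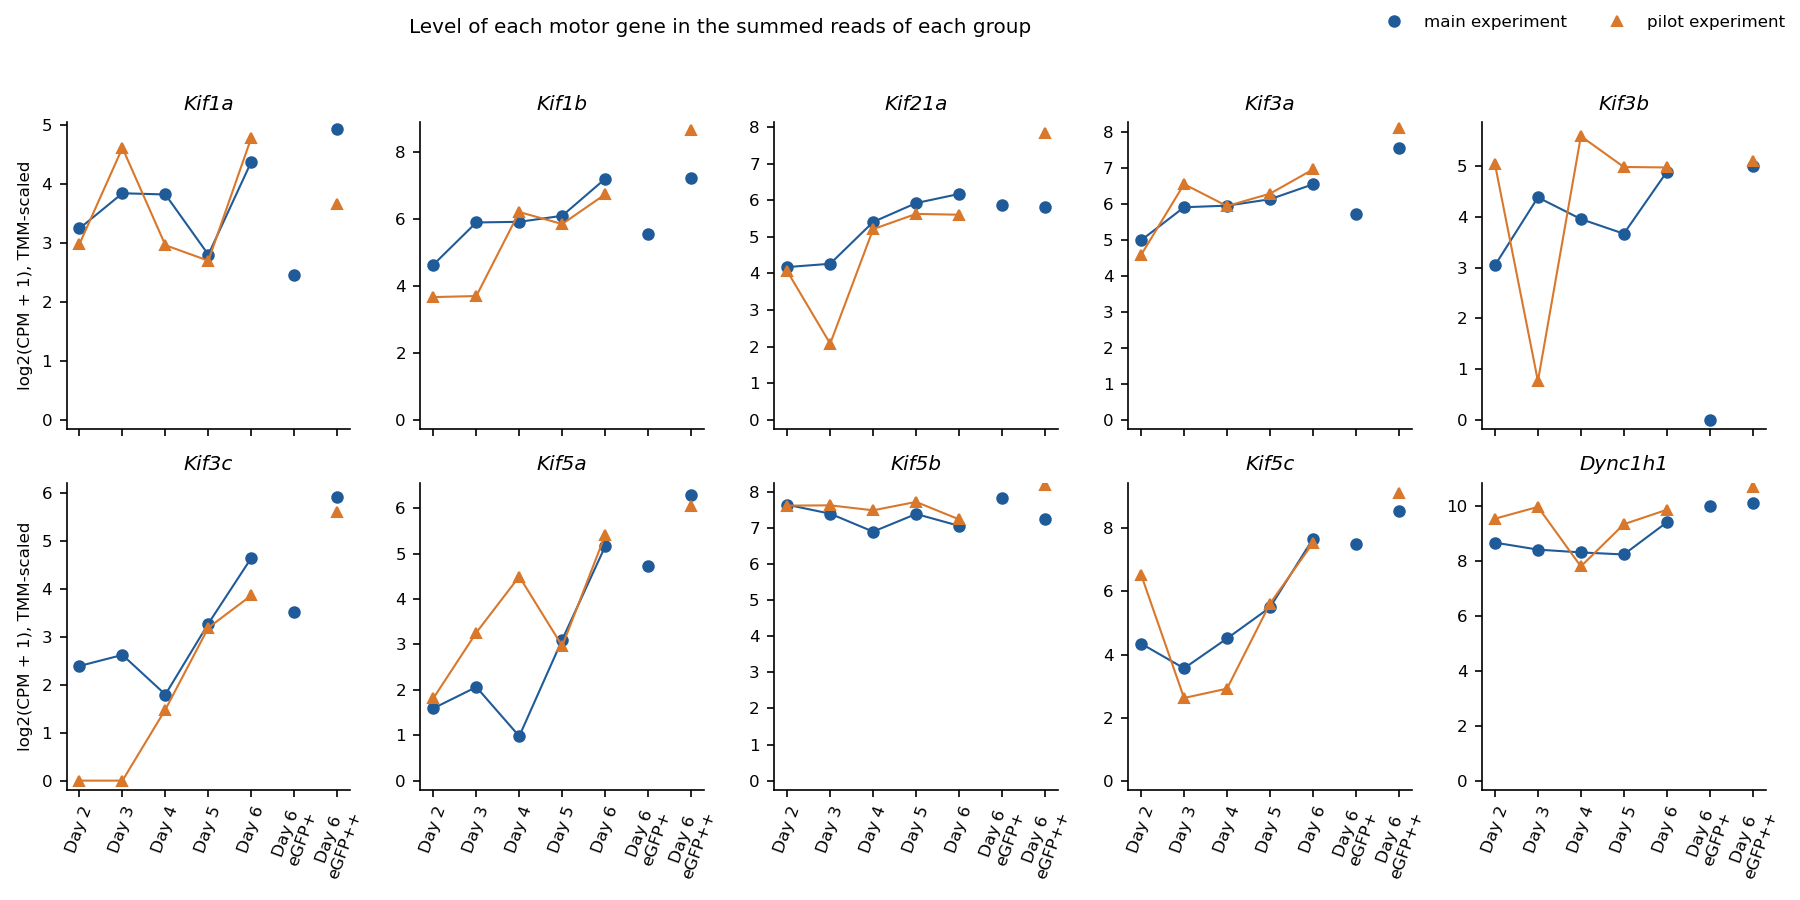
Each panel plots log2(CPM + 1) of summed reads (vertical axis) for a motor gene against the group (horizontal axis); circles are the main and triangles the pilot experiment, lines join Days 2 to 6, and eGFP+ has a main value only. Kif5a and Kif5c are at or near their highest in eGFP++ cells, and Kif5b stays between 118.3 and 289.9 CPM.

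Day 6 against Day 2 compares the last day with the start of sampling. Of the 10 members, 9 had a higher fitted level on Day 6, as did 53.7% of all 16080 genes tested. The median log2 change was 1.81 over the members and 0.17 over all genes. Kif5a stood 17.2-fold higher in the main and 16.5-fold in the pilot experiment, Kif1b 6.12-fold and 9.01-fold, and Kif3a 3.00-fold and 5.37-fold. Kif5c was 10.5-fold and 2.01-fold higher, Kif21a 4.17-fold and 3.04-fold, and Kif1a 2.33-fold and 3.84-fold. Kif3c was 5.65-fold higher in the main experiment. In the pilot, Kif3c reads were found in 0 of 75 cells on Day 2 and in 8 of 71 cells on Day 6. With Day 2 set to a floor of 3 reads, the pilot log2 change was 7.79, and its size depends on that floor. Dync1h1 was 1.67-fold and 1.25-fold higher, and Kif5b was at 0.67 and 0.77 of its Day 2 level.

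None of these changes passed edgeR's quasi-likelihood test with Benjamini-Hochberg adjustment over all genes: 0 of 10 members were called, where 0.833% of all genes were and 0.585% as rising. At an unadjusted p under 0.05 there were 4 members (Kif1b, Kif3a, Kif5a and Kif5c), and 13.7% of all genes. The fitted log2 change was 1.97 ± 0.46 (SE, n = 2 sums a group) for Kif3a with adjusted p = 0.092, 2.86 ± 0.75 for Kif1b with adjusted p = 0.131 and 4.08 ± 1.24 for Kif5a with adjusted p = 0.181. For Kif5b it was -0.50 ± 0.38 with adjusted p = 0.56. DESeq2 called 3 members (Kif1b, Kif3a and Kif5a) and 12.7% of all genes. With cells thinned to 10000 reads edgeR called 3 (Kif1b, Kif5a and Kif5c) and 6.21% of all genes. With cells counted in place of reads it called 5 (Kif1b, Kif3c, Kif5a, Kif5c and Kif21a) and 30.8% of all genes. Both Day 6 sums lay above both Day 2 sums in 7 members (all but Kif3b, Kif5b and Dync1h1), as they did in 27.2% of all genes, and below them in 1, Kif5b, as in 20.9% of all genes.

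Over all 5 days, the slope of the level on the day passed the test in 1 member, as a rise. Kif1b gained 0.67 ± 0.14 log2 units a day (SE, n = 10 sums, edgeR adjusted p = 0.0224), beside 1.97% of all genes called as rising and 4.18% in either direction. Kif5a had a slope of 0.90 ± 0.24 a day with adjusted p = 0.0591 and Kif21a 0.57 ± 0.17 with adjusted p = 0.083, both above the threshold of 0.05. Kif3a had 0.35 ± 0.12 a day, Kif5c 0.54 ± 0.25 and Kif3c 1.23 ± 0.56, with adjusted p of 0.114, 0.261 and 0.25. The slopes of Dync1h1 (0.07 ± 0.12), Kif1a (0.17 ± 0.21), Kif3b (0.21 ± 0.26) and Kif5b (-0.10 ± 0.07) had adjusted p between 0.491 and 0.827. The call of Kif1b was lost when either Day 2 sum or either Day 6 sum was left out, with adjusted p between 0.0842 and 0.109. Leaving out the pilot Day 3 sum brought 3 members past the threshold, Kif1b, Kif3a and Kif21a, beside 3.44% of all genes. Kif5a passed without the pilot Day 4 sum (edgeR adjusted p = 0.0394, 5.58% of all genes), and Kif5c without the pilot Day 2 sum (slope 1.10, edgeR adjusted p = 0.0395, 1.37% of all genes). DESeq2 called 5 members for the slope (Kif1b, Kif3a, Kif3c, Kif5a and Kif21a) and 15.9% of all genes. On thinned cells edgeR called 2 (Kif1b and Kif5a) beside 10.5% of all genes, and with cells counted 5 (Kif1b, Kif3c, Kif5a, Kif5c and Kif21a) beside 26.5%. By edgeR, 6 of 10 neuron markers and 3 of 6 tested motor neuron markers also rose with the day, 7 of 8 pluripotent stem cell markers and 2 of 8 markers of dividing cells fell, and their part in the members' slopes was not tested. Of 8 progenitor markers 2 rose and 1 fell, and 0 of 8 extraembryonic endoderm and 0 of 4 tested glia markers passed.

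**Figure D3:**
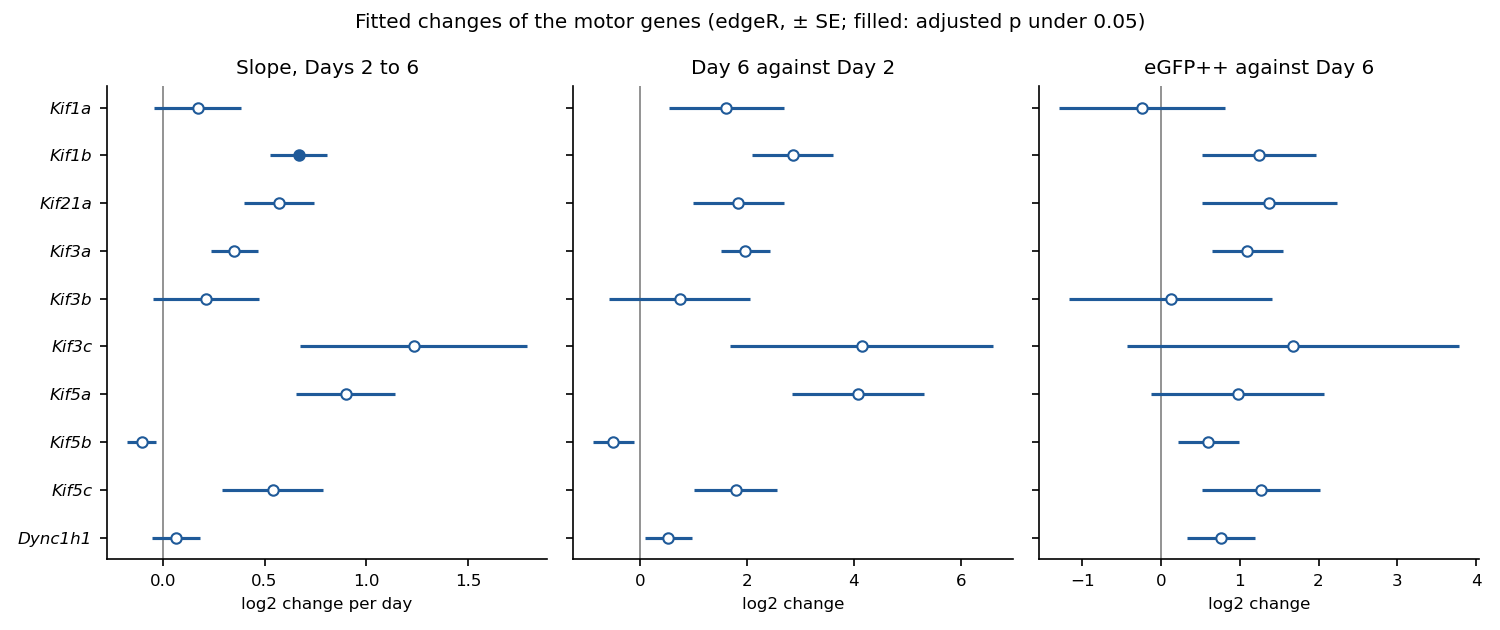
Points give the fitted log2 change of each motor gene (horizontal axis, log2 per day on the left and log2 in the other panels) with ± 1 SE from edgeR; filled points have adjusted p under 0.05. Kif1b in the slope panel, at 0.67 ± 0.14 a day, is the filled point, and Kif5b has values below 0 in the first 2 panels.

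Between neighbouring days, edgeR called 0 of 10 members in each of the 4 comparisons, where 0.0498% of all genes were called on Day 3 against Day 2 and 0% in the other 3. DESeq2 called 0 members as well, with 1.17%, 0.92%, 1.13% and 0.833% of all genes. At an unadjusted p under 0.05 there were 2 members on Day 3 against Day 2 (Kif3a higher, Kif5c lower), 2 on Day 4 against Day 3 (Kif21a higher, Dync1h1 lower), 1 on Day 5 against Day 4 and 1 on Day 6 against Day 5 (Kif5c higher in both). Of all genes, 3.65%, 2.69%, 3.70% and 3.17% had such a p in these 4 comparisons. Kif5c had a fitted log2 change of 1.71 ± 0.77 from Day 4 to Day 5 and of 2.07 ± 0.77 from Day 5 to Day 6. Counted by cells with a read, Kif5c rose in both steps and Kif5a in the second, beside 2.45% and 2.22% of all genes.

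Shares of cells give less weight to cells that hold many reads. They were taken over 2433 cells, of which the pilot eGFP++ group had 39, and the Wilson intervals (95%) cover counting error only. Kif1b was seen in 14.1% (10.8 to 18.1) of main and 2.70% (0.744 to 9.33) of pilot cells on Day 2, and in 29.1% (24.6 to 34.03) and 29.6% (20.2 to 41.02) on Day 6. Kif5c was seen in 9.86% (7.17 to 13.4) and 5.41% (2.12 to 13.1) on Day 2 and in 31.4% (26.7 to 36.4) and 29.6% (20.2 to 41.02) on Day 6, and in 50.4% (44.6 to 56.1) and 30.8% (18.6 to 46.4) in eGFP++ cells. Kif5a was seen in 0.845% and 1.35% of cells on Day 2, 10.7% and 11.3% on Day 6 and 24.8% and 17.9% in eGFP++ cells. Without thinning, Kif5a was seen in 8.03% and 2.67% of cells on Day 2 and 19.8% and 23.9% on Day 6.

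The slope of the share on the day, as the mean of the 2 experiments, was put to an exact permutation test (two-sided, 14400 orders of the days within the experiments, adjusted over 11575 genes). It passed in 4 of the 10 members, as a rise. Kif1b gained 5.41 percentage points a day (exact permutation, adjusted p = 0.0292), Kif3a 4.40 (adjusted p = 0.0356), Kif5a 2.21 (adjusted p = 0.0446) and Kif3c 1.12 (adjusted p = 0.0471). Of all genes, 3.65% were called as rising and 5.41% in either direction. Kif5c had the steepest slope, 5.92 points a day, with adjusted p = 0.0708, and Kif21a had 3.75 with adjusted p = 0.0969. Thinned to 5000 reads, 2 of the 4 passed (Kif1b and Kif3a) beside 6.12% of all genes. All 4 calls were lost without thinning (adjusted p from 0.0946 to 0.639, with 5 members and 16.7% of all genes at an unadjusted p under 0.05, and 0% of 14026 genes called). They were also lost without 3 plates with few genes per well, where adjusted p lay between 0.0513 and 0.0639 and 2.28% of all genes were called. Median detected genes per cell differed between groups, from 1404 (pilot Day 4) to 4439 (main Day 2), and their part in the shares was not tested.

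Kif5b and Dync1h1 were the members seen most often on Days 2 to 6, and their shares had no common direction. Kif5b was seen in 59.2%, 49.8%, 40.7%, 57.4% and 37.01% of main cells on Days 2 to 6, and in 33.8%, 33.3%, 31.6%, 56% and 43.7% of pilot cells. Dync1h1 was seen in 74.9%, 55.2%, 49.1%, 54.9% and 56.2% of main cells and in 41.9%, 43.5%, 21.1%, 62.7% and 69.01% of pilot cells. The slope over the days was thus negative in the main and positive in the pilot experiment for both genes, -3.67 and 4.24 points a day for Kif5b and -3.77 and 7.34 for Dync1h1. That difference between the experiments was not tested.

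**Figure D4:**
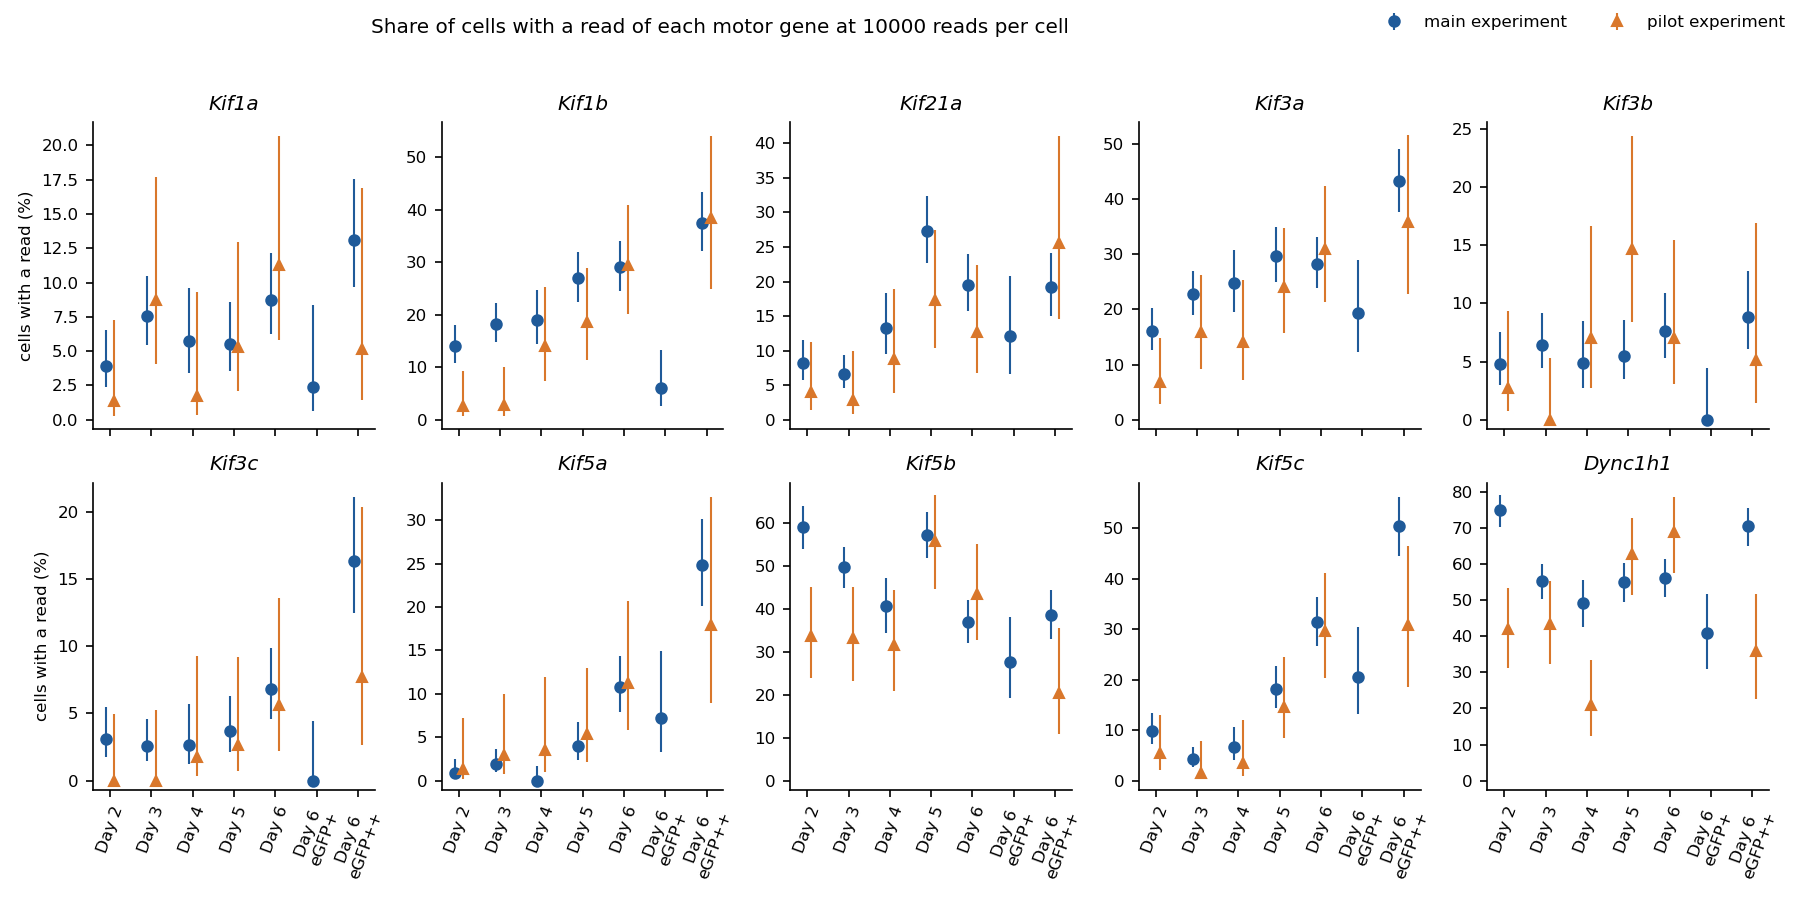
Each panel plots the percentage of cells with a read of a motor gene at 10000 reads per cell (vertical axis) against the group (horizontal axis), with 95% Wilson intervals; circles are the main and triangles the pilot experiment. Kif1b lies at 14.1% and 2.70% on Day 2 and at 29.1% and 29.6% on Day 6, and the 2 experiments stand apart for Dync1h1 on Day 2 at 74.9% and 41.9%.

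Day 6 eGFP++ cells were set against Day 6 cells without an eGFP label. Of the 10 members, 9 had a higher fitted level in eGFP++ cells, with a median log2 change of 1.03, while the median of all genes was -0.52 and 37.6% of genes were higher. Kif3a was 2.04-fold higher in the main and 2.22-fold in the pilot experiment, Kif5c 1.86-fold and 3.00-fold, Kif3c 2.47-fold and 3.53-fold, Kif5a 2.23-fold and 1.56-fold, and Dync1h1 1.62-fold and 1.78-fold. Kif1b was 1.02-fold and 3.78-fold higher, and its fitted log2 change of 1.24 became -0.14 without the pilot eGFP++ sum. Both eGFP++ sums lay above both Day 6 sums in 8 members (all but Kif1a and Kif21a), as in 12.2% of all genes.

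By edgeR, 0 of 10 members were called in this comparison, where 0.0311% of all genes were, and 1 member, Kif3a, had an unadjusted p under 0.05, as did 6.29% of all genes. Its log2 change was 1.10 ± 0.45 (SE, n = 2 sums a group, edgeR adjusted p = 0.743). DESeq2 also called 0 members, with 3.25% of all genes. The 8 markers of dividing cells moved with this contrast, at 1211 and 2088 CPM on Day 6 and 290 and 94.4 CPM in eGFP++ cells. The share of cells with any neuron marker read was 98.9% and 94.9% in eGFP++ cells and 85.3% and 85.9% on Day 6. On Day 2 that share was already 60.8% and 21.6%. The 8 progenitor markers summed to 1626 and 1495 CPM on Day 6 and to 662 and 1135 CPM in eGFP++ cells, with 0 passing. The 8 extraembryonic endoderm markers summed to 177.2 and 122.04 CPM on Day 6 and to 37.96 and 35.5 CPM in eGFP++ cells, with Sox17 at 0 in all 4 sums. Of these 8, 1 passed as lower in eGFP++ cells, Sparc (log2 change -5.96 ± 0.60, edgeR adjusted p = 0.00614). The 6 glia markers summed to 51.9 and 79.1 CPM on Day 6 and to 86.1 and 266.2 CPM in eGFP++ cells, with Gfap and Aqp4 at 0 in all 4. The part of these cell types in the members' levels was not tested. In the pilot experiment the shares of 7 members lay on the same side of Day 6 as their levels, and those of 3 did not. Of these, Dync1h1 was seen in 35.9% of eGFP++ and 69.01% of Day 6 cells Kif5b in 20.5% and 43.7%, and Kif3b in 5.13% and 7.04%.

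The eGFP+ cells, on 1 plate with 83 kept cells, have no replicate check. Against the main eGFP++ cells, Kif1a was lower there (4.48 and 29.3 CPM), as were Kif3a (52.1 and 188.7 CPM), Kif1b (45.4 and 148.2 CPM) and Kif5a (25.4 and 77.4 CPM). Dync1h1 (1026 and 1090.0 CPM) and Kif21a (57.2 and 55.2 CPM) lay close together, and Kif5b was higher in eGFP+ cells (226.3 and 151.8 CPM). By share, all 10 members were seen in fewer eGFP+ than main eGFP++ cells. Kif5c, for example, was seen in 20.5% (13.2 to 30.4) and Dync1h1 in 40.96% (31.01 to 51.7) of eGFP+ cells. The same count was not made over all genes, so this direction is not shown to be particular to the motors. The plate had a median of 1524 genes per cell, below the 2644 of the main eGFP++ cells, and markers of dividing cells summed to 1839 CPM. Spike-in sequences took 13.1% of its reads beside 8.41%.

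Within Day 6, cells with a read of Stmn2, a stathmin of growing axons, held more motor genes than the others. At 10000 reads, the mean number of the 10 members seen per cell was 3.08 in main cells with Stmn2 and 1.76 in those without, and 3.48 (23 cells) and 2.04 (48 cells) in the pilot. Kif5a was seen in 21.4% (15.7 to 28.4) of main cells with Stmn2 and 2.05% (0.801 to 5.15) of those without, and in 30.4% (15.6 to 50.9) and 2.08% (0.369 to 10.9) of pilot cells. Kif5c was seen in 49.7% and 16.4% of main and in 47.8% and 20.8% of pilot cells. Kif1a was seen in 15.7% and 3.08% of main and in 26.1% and 4.17% of pilot cells.

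Kif21a, Kif5b, Kif3a and Kif3c had overlapping intervals with and without Stmn2 in both experiments. In the pilot those of Kif1a, Kif1b, Kif3b, Kif5c and Dync1h1 overlapped as well, so that only Kif5a stood apart in both. Kif3a was seen in 34.6% and 23.1% of main and in 26.1% and 33.3% of pilot cells. Kif21a was seen in 20.1% of main cells with Stmn2 and 18.97% of those without, and in 13.04% and 12.5% of pilot cells. Kif5b was seen in 35.8% and 37.9% of main and in 52.2% and 39.6% of pilot cells. Dync1h1 was seen in 67.3% (59.7 to 74.1) and 47.2% (40.3 to 54.2) of main cells. Median detected genes were 2591 and 2152 in main cells with and without Stmn2, and 3309 and 3397 in pilot cells. The cells of a sum are not replicates, so no test was made of this split.

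**Figure D5:**
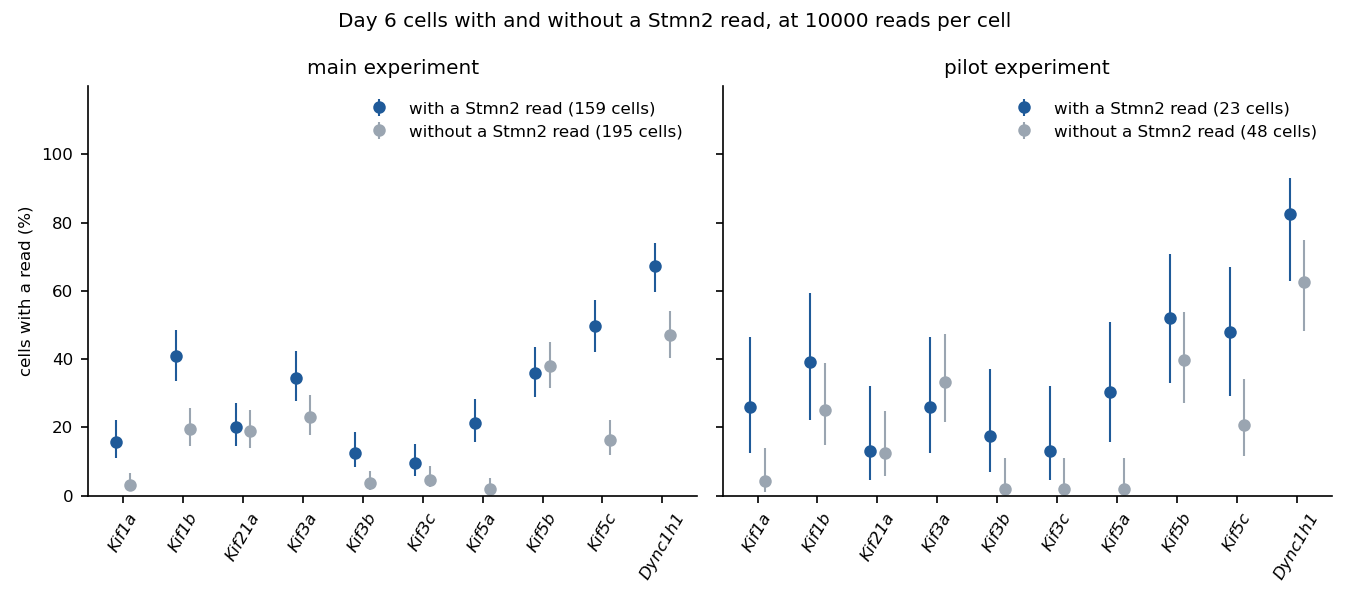
Points give the percentage of Day 6 cells with a read of each motor gene (vertical axis) for cells with (blue) and without (grey) a Stmn2 read, with 95% Wilson intervals, main experiment on the left and pilot on the right. Kif5a lies at 21.4% and 30.4% in cells with Stmn2 against 2.05% and 2.08% in the others, while the Kif21a points nearly coincide.

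Day 6 cells were also split by Top2a, a topoisomerase of dividing cells. Kif5a was seen in 3.66% of main cells with Top2a (82 cells) and 12.9% of those without, and in 5.71% of 35 and 16.7% of 36 pilot cells. Kif5c was seen in 23.2% and 33.8% of main and in 20% and 38.9% of pilot cells. Kif1a was seen in 6.10% and 9.56% of main and in 11.4% and 11.1% of pilot cells. The intervals of Kif5a, Kif5c and Kif1a with and without Top2a overlapped in both experiments. Kif1b was seen in 17.1% (10.5 to 26.6) of main cells with Top2a and 32.7% (27.4 to 38.5) of those without. Its pilot intervals overlapped, at 25.7% and 33.3%. Kif5b was seen in 51.2% (40.6 to 61.7) of main cells with Top2a and 32.7% (27.4 to 38.5) of those without. In the pilot the Kif5b intervals overlapped, at 45.7% (30.5 to 61.8) and 41.7% (27.1 to 57.8). Median detected genes were 2798.5 and 2198 in main cells with and without Top2a, and 3892 and 3132.5 in pilot cells. On Day 5 Kif21a was seen in 15.9% of 63 main cells with Stmn2 and 30.04% of the others, and in 25% of 8 and 16.4% of 67 pilot cells, so that the experiments differed in direction.

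After the mean of each experiment was subtracted, Pearson's r of log2(CPM + 1) over the 12 sums of Days 2 to 6 and eGFP++ cells was 0.91 between Kif1b and Kif3c and 0.91 between Kif1b and Kif21a. Within families, r was 0.83 between Kif3a and Kif3c, 0.52 between Kif3b and Kif3c, 0.14 between Kif3a and Kif3b, 0.67 between Kif5a and Kif5c, and 0.23 between Kif1a and Kif1b. Kif5b had r between -0.37 and 0.24 with every other member. Among 7256 genes, the 3 most like Kif5c were Ccdc85b, Cdk5r1 and Mllt11 (r = 0.962, 0.961 and 0.9603), and those most like Dync1h1 were Slc29a4, Pitpnc1 and Snhg11 (0.986, 0.947 and 0.944). For Kif1a they were Nprl2, Ucp2 and Tbkbp1 (0.852, 0.812 and 0.808). These values describe 12 points that share depth and scaling, and carry no test.

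The partners of the motors were read from lists. Of 23 kinesin light chains and cargo adaptors, 2 rose with the day and 0 fell (edgeR), as did 1.97% and 2.21% of all genes. Their median slope was 0.42 log2 a day beside 0.02 for all genes. Klc1, the light chain that binds kinesin-1 heavy chains, measured 19.5 and 4.57 CPM on Day 2 and 122.99 and 121.9 CPM on Day 6 (slope 0.85 ± 0.13 a day, edgeR adjusted p = 0.00615). Fez1, a kinesin-1 adaptor, measured 6.23 and 9.79 CPM on Day 2 and 120.1 and 89.7 CPM on Day 6 (0.90 ± 0.14 a day, edgeR adjusted p = 0.00737). In eGFP++ cells the experiments differed for Fez1, at 193.5 CPM (main) and 9.22 CPM (pilot). Klc1 was also the 1 gene of this list that rose on Day 6 against Day 2 (log2 change 3.63 ± 0.63, edgeR adjusted p = 0.0292). Of all genes, 0.585% were called as rising in that comparison. In eGFP++ against Day 6, 0 of the 23 passed, and the 2 with the smallest p were Kidins220 (log2 change 1.10 ± 0.46) and Hap1 (-3.34 ± 1.51), both with edgeR adjusted p = 0.743.

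Of 26 tested dynein subunits, dynactin subunits and dynein adaptors, 0 passed for the slope, for Day 6 against Day 2 or for eGFP++ cells. In these comparisons 21, 21 and 20 of them had a higher fitted level, as did 51.7%, 53.7% and 37.6% of all genes. The smallest p for the slope belonged to Dctn3, a dynactin subunit (0.30 ± 0.08 a day, edgeR adjusted p = 0.0625), and Dync1li2, a dynein light intermediate chain (0.43 ± 0.13, edgeR adjusted p = 0.098). Dync1li2 measured 27.6 and 19.2 CPM on Day 2 and 74.9 and 124.6 CPM on Day 6. Dync1i2, an intermediate chain, had the smallest p in eGFP++ cells (log2 change 1.42 ± 0.55, edgeR adjusted p = 0.743). It measured 274.7 and 262.8 CPM on Day 6 and 412.7 and 1113 CPM in eGFP++ cells. The adaptor Hook3 followed (2.29 ± 1.07, edgeR adjusted p = 0.743). Hook3 was slightly lower in main eGFP++ cells (32.5 CPM on Day 6 and 30.9 CPM) and higher in the pilot (31.2 and 345.9 CPM).

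Kinesins of mitosis lay on the other side. Of 13 tested, 0 passed for the slope or for Day 6 against Day 2, and the median slope was -0.29 log2 a day. Of these 13, 1 had a higher fitted level on Day 6 than on Day 2, beside 53.7% of all genes. Kif14, a motor of cytokinesis, measured 20.2 and 37.2 CPM on Day 2, 5.08 and 10.5 CPM on Day 6 and 0.18 and 0.12 CPM in eGFP++ cells (slope -0.52 ± 0.15, edgeR adjusted p = 0.0756). In eGFP++ cells 0 of 13 were higher than on Day 6, beside 37.6% of all genes, and 0 passed, with a median log2 change of -2.70. Kif14 had the smallest p there (-5.44 ± 1.10, edgeR adjusted p = 0.164), followed by Kif18a (-4.91 ± 1.54, edgeR adjusted p = 0.588).

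Of 14 other transport and microtubule kinesins, 0 rose and 1 fell with the day, as did 1.97% and 2.21% of all genes. Kifc2 measured 76.2 and 72.7 CPM on Day 2 and 7.16 and 9.99 CPM on Day 6 (slope -0.97 ± 0.18, edgeR adjusted p = 0.0149), a direction opposite to that of Kif5a and Kif5c. On Day 6 against Day 2, 0 of the 14 passed, and Kif21b, the paralogue of Kif21a, had the smallest p: it measured 8.99 and 0 CPM on Day 2 and 47.7 and 54.8 CPM on Day 6 (edgeR adjusted p = 0.348). In eGFP++ cells 0 passed, with Kif1c, another kinesin-3 motor, at 25.97 and 30.6 CPM on Day 6 and 5.76 and 0.18 CPM in eGFP++ cells (edgeR adjusted p = 0.683). Of 17 genes of intraflagellar transport, the traffic that builds cilia with kinesin-2 and a second dynein, 0 passed in any of the 3 comparisons, and the median slope was 0.03 log2 a day.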

How the data were processed

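The deposited tables, 1 per plate, hold raw whole-number read counts, with genes as lines and cells as columns. The submitters' processing notes name TopHat2 2.1.1, HTSeq 0.6.1 and mm10, without the counting settings. The protocol as described has no molecular identifiers. Of 24092 entries per table, 23968 genes were used; 27 names that differ between tables, 92 spike-in sequences (6.16% of reads) and 5 summary lines (34.9%) stayed out. Columns carry no names, so a cell was given the group of its plate; 40 columns of 1 table matched no sample and were not used. No doublet caller was run.

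Cells with at least 500 genes were summed per group and experiment. In R 4.3.3, edgeR 4.0.16 (filterByExpr, TMM, quasi-likelihood) was fitted as group plus experiment on 12 sums (16080 genes, 5 residual degrees of freedom, common dispersion 1.12, prior count 0.125) and as day plus experiment on the 10 sums without eGFP (15971 genes, 7 degrees of freedom, common dispersion 1.27). Tests were two-sided and p-values were adjusted by Benjamini-Hochberg over every gene of the fit. The 2 experiments are biological replicates per the labels. They enter the fit as a block because each has its own plate format; log2 differences between main and pilot sums correlated between groups at 0.0479 to 0.251 (median 0.107 over 15 pairs of groups). SE is the log2 change divided by the root of F. Shares used genes seen in at least 1% of cells. The steps were tested on simulated data. DESeq2 1.42.0, Python 3.11.15 and GENCODE M21 coordinates were used otherwise.

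The members and lists were chosen with earlier results of these data known. Genes named from the lists of motor partners and other kinesins were picked for the slope, Day 6 against Day 2 and eGFP++ against Day 6. Up to 2 genes that rose and 2 that fell were taken, by the smallest adjusted p. Where none passed, the 2 with the smallest p were taken. Not every gene picked in this way is named. The genes most like Kif1a, Kif5c and Dync1h1 are the 3 with the highest r among genes with 20 CPM or more in a sum of each experiment. Those most like Kif5b are not reported here.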

Additional observations from a re-analysis of the deposited data

How the results depend on the processing

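Directions held more often than calls. For Day 6 against Day 2, 0 members were called by edgeR, 3 with DESeq2, 3 after thinning cells to 10000 reads (6.21% of all genes) and 5 when cells with a read were counted instead of reads (30.8% of all genes). For the slope the count of 1 became 5 with DESeq2 (15.9% of all genes), 2 with thinned cells (10.5%) and 5 with cells counted (26.5%), and 0 to 3 when any sum was left out. Counting cells gave 1 member for Day 5 against Day 4 (Kif5c) and 2 for Day 6 against Day 5 (Kif5a and Kif5c), and left-out sums gave 0 to 0 in these and in all other comparisons of groups. The 4 members called by the slope of the share became 2 at 5000 reads, 0 without thinning and 0 without the 3 plates. In either experiment alone the days have only 120 orders, which sets a high floor on p. Calls there are therefore not compared. The alternative without 3 plates was chosen after seeing the data.

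Without the replicate block, 0 members were called for Day 6 against Day 2 and 1 for the slope, Kif1b at 0.63 log2 a day (edgeR adjusted p = 0.0406, 3.07% of all genes), and the block changed no other call. In eGFP++ against Day 6, Kif1a turned to 0.53 with cells counted, and Kif3b turned to -0.26 and Kif5b to -0.074 with thinned cells. Leaving out 1 sum gave ranges that cross 0 for Kif1a (-0.99 to 0.29), Kif1b (-0.14 to 2.04), Kif3b (-0.14 to 0.39) and Kif21a (-0.46 to 2.33) in that comparison, for Kif3b on Day 6 against Day 2 (-0.069 to 1.98), and for the slope of Dync1h1 (-0.047 to 0.10). With 1 experiment left out whole, the share slopes ran from -3.67 to 4.24 for Kif5b and from -3.77 to 7.34 for Dync1h1. The causes were not tested. The pilot eGFP++ sum, with 39 cells, decides the sign for Kif1b (-0.14 without it) and Kif21a (-0.46 without it).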
